A study of Homo sapiens with 21 samples.

Results

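The 8 basal and stress keratins, KRT5, KRT14, KRT15, KRT17, KRT6A, KRT6B, KRT6C and KRT16, were taken by gene symbol from 3 tables of a human lung epithelial cell line. All 8 were found in each table, among 17756 genes in the chromosome 3 mRNA table, 20036 in the chromosome 8 mRNA table and 19854 gene names in the footprint table. The isogenic cells had lost chromosome arm 3p (3p loss), gained 3q (3q gain) or lost 8p (8p loss), and were set against Chr3 WT or 8p WT cells. Ribosome-protected fragments (RPF, the pieces of mRNA covered by a ribosome) came from 3p loss cells and from cells labelled 3p WT. Both had 5 min of cycloheximide to hold ribosomes in place. Each of the 7 groups had 3 libraries labelled as biological replicates. The labels do not say how the arms were changed, whether a group is 1 clone, or whether mRNA and footprints came from the same cultures.

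Keratins build the intermediate filaments of epithelial cells as pairs of an acidic type I and a basic type II protein. KRT5 (type II) with KRT14 or KRT15 (type I) mark the basal cells of stratified and airway epithelia. KRT6A, KRT6B and KRT6C (type II) and KRT16 and KRT17 (type I) are the stress keratins, known to be switched on in wounded, inflamed and fast-growing epithelium. The type II genes lie together on chromosome 12 in RefSeq's GRCh38 annotation, with KRT6B at chr12:52446651-52452146, KRT6C at chr12:52468516-52473805, KRT6A at chr12:52487176-52493257 and KRT5 at chr12:52514575-52520394. The type I genes lie on chromosome 17, with KRT15 at chr17:41513745-41518890, KRT14 at chr17:41582279-41586895, KRT16 at chr17:41609778-41612767 and KRT17 at chr17:41619442-41624575. Neither cluster is on an arm named in the labels, and the median log2 fold change of the tested genes of 12q and of 17q was 0.03 and 0.02 in 3p loss mRNA and -0.03 and 0.13 in 8p loss mRNA.

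Of the members, KRT5 had an entry in the RefSeq promoter table (GRCh38.p14). The 250 bases before its start, chr12:52520395-52520644 on the minus strand, are shown because KRT5 held the highest mean mRNA level of the 8 in every group. Capitals mark a TATA-type motif spelled ATAAAA, which begins 29 bases before the start, and the core shared by p53-family sites, spelled CATG, which begins 94 bases before it.
KRT5 promoter: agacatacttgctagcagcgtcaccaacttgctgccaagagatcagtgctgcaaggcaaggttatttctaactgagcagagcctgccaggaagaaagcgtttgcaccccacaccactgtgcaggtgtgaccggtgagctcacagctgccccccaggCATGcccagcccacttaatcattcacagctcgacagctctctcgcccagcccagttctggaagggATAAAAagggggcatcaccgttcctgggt
On either strand, ATAAAA stood in 14.8% and CATG in 47.6% of 35116 promoter windows of that length. CACCC had 1 match here and stood in 54.7% of windows, while GGGCGG (42.6%) and TGANTCA, the AP-1 motif (6.57%), had no match in this window. These are descriptions of letters and not of binding.

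The cells carried the epithelial genes of the label. All 10 epithelial markers averaged at least 1 TPM (a level scaled for gene length and library size) in each chromosome 3 group. They include the keratins KRT8, KRT18 and KRT19. Airway secretory markers summed to at most 0.988 TPM in any library. The fibroblast list reached a mean of at least 1 TPM for 3 of its 8 genes in WT and in 3p loss, with sums of 5.27 to 8.72 TPM in WT, 3.18 to 7.25 TPM in 3q gain and 8.06 to 124 TPM in 3p loss. The high sums came from DCN, at 75.8, 2.96 and 113.9 TPM in 3p loss replicates 1, 2 and 3, while PDGFRA was at 0 in every WT and 3p loss library and COL1A2 and COL3A1 were near 0. The 6 endothelial markers summed to 0.369 to 0.788 TPM in WT and 3.42 to 14.5 TPM in 3p loss, nearly all of it KDR. The part of these genes in the keratin results was not tested, and in such bulk libraries fewer cells of a type and less RNA per cell cannot be told apart. RPF libraries held 4622326 to 13607875 counts. RPF replicates 1 and 2 differed little more than by counting noise, with a chi-square per degree of freedom of 1.34 in WT and 1.38 in 3p loss, against 6.94 to 12.4 for pairs with replicate 3. The keratin tests in footprints and in footprints relative to mRNA are therefore also given with these libraries summed. TUBB, which most cells use, and the epithelial markers CLDN7 and OCLN were at 0 in every RPF library, so a 0 in that table was not read as absence.

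In WT cells of the chromosome 3 set, basal and stress keratins made up 1.04 to 1.94% of all TPM. KRT5 and KRT17 were the most abundant, at 5757 ± 2135 TPM and 4725 ± 1396 TPM (SD, n = 3), and their libraries overlapped. KRT6A (1944 ± 472 TPM) and KRT14 (1379 ± 673 TPM) came next and overlapped each other. KRT6B (46.6 ± 2.86 TPM), KRT15 (40.5 ± 43.4 TPM), KRT16 (23.9 ± 10.3 TPM) and KRT6C (9.11 ± 2.36 TPM) were far lower. Type II members summed to 1.10 to 1.52 times the type I members in WT, and to 1.95 to 2.25 times in 3p loss, with no overlap. Over all keratins the same ratio was 1.36 to 1.79 in WT and 1.31 to 1.83 in 3p loss, and the groups overlapped. In 3q gain the ratio of the members ran from 1.13 to 2.27 and overlapped both groups.

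**Figure D1:**
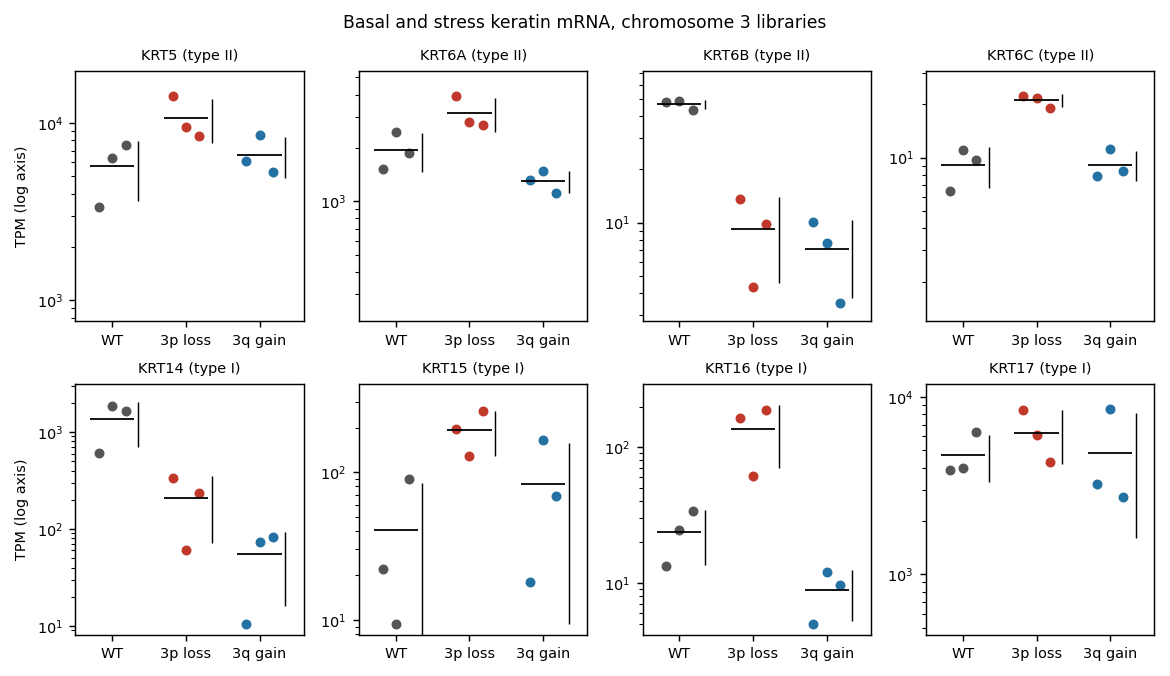
Level of each keratin gene in TPM (log axis) in the 9 chromosome 3 mRNA libraries, with points for libraries, lines for group means and bars at the side for SD (n = 3). The SD of KRT15 in WT reaches below 0 and runs off the axis. KRT14 and KRT6B sit lower in every 3p loss and 3q gain library than in any WT library, and KRT16 and KRT6C sit higher in every 3p loss library than in any other library.

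In 3p loss mRNA, stress keratins KRT16, KRT6C and KRT6A rose, while the basal keratin KRT14 and the stress keratin KRT6B fell. These were 5 of 8 members, against 6.17% of all 11225 genes tested that were called higher and 8.8% called lower (limma, Benjamini-Hochberg adjusted p under 0.05). The median log2 fold change was 0.82 over the 8 members and 0.01 over all genes. After median centring of the libraries, 1118 genes of all were called higher and 850 lower, in place of 693 and 988. The number of members called was 3 without any 1 of the 3p loss libraries.

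KRT16, the type I partner of KRT6 proteins, was at 13.2, 24.6 and 33.8 TPM in WT and at 163, 60.9 and 188 TPM in 3p loss. Every 3p loss library was above every WT library, and replicate 2 was the lowest of the 3, as it was for DCN. The log2 fold change was 2.42 ± 0.47 (SE; limma, adjusted p = 0.00959), on the log2(TPM + 1) scale used for all mRNA fold changes here. KRT6C was at 6.51, 11.1 and 9.72 TPM in WT and at 22.4, 21.6 and 19.1 TPM in 3p loss. Its groups did not overlap, and it rose by 1.15 ± 0.21 (limma, adjusted p = 0.00632). KRT6A, the most abundant KRT6 gene, was at 1518, 2452 and 1863 TPM in WT and at 3941, 2805 and 2703 TPM in 3p loss. It rose by 0.70 ± 0.20 (limma, adjusted p = 0.0450) with no overlap, but that call was lost without any 1 of 5 of the 6 libraries, with adjusted p between 0.0216 and 0.138 over the 6 removals.

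KRT6B moved the other way from its neighbours. It was at 47.9, 48.5 and 43.3 TPM in WT and at 13.5, 4.31 and 9.84 TPM in 3p loss. The 3 WT libraries lay close together and far above 3p loss, and the log2 fold change was -2.33 ± 0.39 (limma, adjusted p = 0.00465). KRT14, the usual type I partner of KRT5, was at 611, 1862 and 1664 TPM in WT and at 336, 60.6 and 236 TPM in 3p loss. It fell by 2.87 ± 0.84 on the log2 scale (limma, adjusted p = 0.0477) with no overlap between groups. That call too was lost without any 1 of 5 of the 6 libraries (adjusted p of 0.0439 to 0.132), and with a pseudocount of 0.1 (0.0521).

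The other basal keratins did not pass. KRT5 was at 3379, 6384 and 7509 TPM in WT and at 14158, 9537 and 8468 TPM in 3p loss, a log2 fold change of 0.94 ± 0.31 (limma, adjusted p = 0.0704). KRT15, a basal keratin that tends to be low in activated epithelium, was at 22.1, 9.34 and 90.1 TPM in WT and at 196, 129 and 258 TPM in 3p loss, a log2 fold change of 2.75 ± 0.86 (limma, adjusted p = 0.0592). Neither gene's groups overlapped, and KRT15 passed without WT replicate 3, its highest WT library (3.60, adjusted p = 0.0256), and after median centring (2.84, adjusted p = 0.0447). KRT17, a stress keratin also made by basal cells in culture, was at 3867, 3971 and 6336 TPM in WT and at 8501, 6078 and 4296 TPM in 3p loss. Its groups overlapped (0.40 ± 0.42, limma, adjusted p = 0.553). KRT5 per KRT14, in TPM, had a median of 4.51 in WT and 42.2 in 3p loss.

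In 3q gain mRNA, 2 of the 8 members passed the test, KRT14 and KRT6B, both lower. All 11225 genes had 2.6% called higher and 2.67% called lower. This comparison used the same WT libraries as 3p loss against WT. KRT14 was at 10.5, 72.8 and 81.8 TPM in 3q gain, below every WT library, and fell by 4.91 ± 0.84 on the log2 scale (limma, adjusted p = 0.0143). KRT6B was at 10.0, 7.71 and 3.50 TPM, also below every WT library, and fell by 2.65 ± 0.39 (limma, adjusted p = 0.00846). KRT5 per KRT14 had a median of 118 in 3q gain.

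The other stress keratins did not pass in 3q gain. KRT16 was at 4.95, 12.1 and 9.59 TPM, each below the lowest WT library, with a log2 fold change of -1.31 ± 0.47 (limma, adjusted p = 0.136). KRT6A was at 1311, 1480 and 1109 TPM, also below every WT library (-0.56 ± 0.20, limma, adjusted p = 0.134). KRT6C ran from 7.92 to 11.2 TPM and overlapped WT (0.02 ± 0.21, limma, adjusted p = 0.963). KRT17 (-0.12 ± 0.42, adjusted p = 0.895), KRT5 (0.25 ± 0.31, adjusted p = 0.664) and KRT15 (1.11 ± 0.86, adjusted p = 0.474) also overlapped WT in limma's fit. KRT17 was at 8617 TPM in 3q gain replicate 2 against 3234 and 2740 TPM in the other libraries.

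Set directly against 3q gain, 3p loss had higher mRNA of 3 stress keratins, against 0.873% of all genes called higher and 3.06% called lower. KRT16 was higher by 3.73 ± 0.47 on the log2 scale (limma, adjusted p = 0.00399), KRT6A by 1.26 ± 0.20 (0.00915) and KRT6C by 1.13 ± 0.21 (0.0163), with no overlap between the groups for any of them. The call of KRT6C was lost without 3p loss replicate 1 (adjusted p = 0.0772), 3q gain replicate 1 (0.0689) or 3q gain replicate 3 (0.0659). For the basal keratins the differences did not pass, at 2.04 ± 0.84 for KRT14 (limma, adjusted p = 0.274), 0.69 ± 0.31 for KRT5 (0.332) and 1.64 ± 0.86 for KRT15 (0.424). KRT6B (0.32 ± 0.39, 0.816) and KRT17 (0.51 ± 0.42, 0.657) did not pass either.

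**Figure D2:**
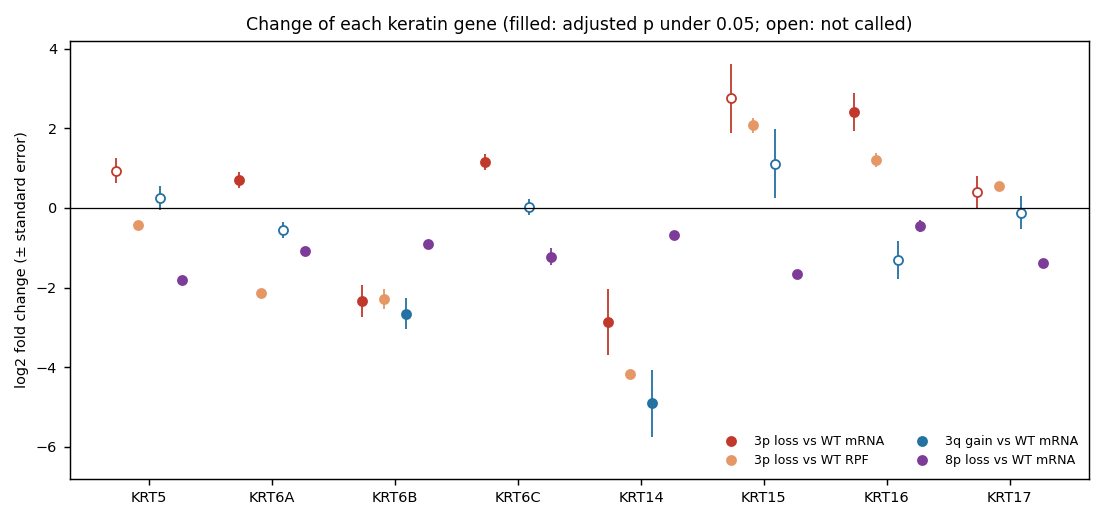
Log2 fold change against WT of each keratin gene with its standard error in 3p loss mRNA, 3p loss footprints, 3q gain mRNA and 8p loss mRNA. Filled points passed an adjusted p of 0.05 and open points did not. KRT6A is above 0 in 3p loss mRNA and at -2.14 in footprints, KRT14 and KRT6B are below 0 in all 4 comparisons, and KRT6C has no footprint test.

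In footprints, 3p loss cells had higher levels of KRT15, KRT16 and KRT17 and lower levels of KRT14, KRT6B, KRT6A and KRT5. These levels are not set against the amount of mRNA. All 7 members tested passed (edgeR quasi-likelihood test, adjusted p under 0.05), where 35.1% of all 11425 genes were called higher and 34.2% lower, so that most genes passed. The size of the changes differed widely among the members, from -4.16 to 2.07 on the log2 scale, against a median of 0.02 over all genes. Footprint levels are in CPM (counts scaled to library size) and are not scaled for gene length, so levels of different genes are not compared, and ratios of counts between relatives are set only between groups. Fibroblast markers summed to 22.3 to 24.4 CPM in WT and 67.2 to 75.8 CPM in 3p loss, and 6 of 8 tested epithelial markers were called higher and 1 lower. Alveolar markers summed to 5.89 to 6.25 CPM in WT and 83.1 to 94.8 CPM in 3p loss, nearly all of it LAMP3 in 3p loss, with 5 of the 8 genes at 0 in both groups. Endothelial markers summed to 2.00 to 2.27 CPM in WT and 10.9 to 13.7 CPM in 3p loss, and ciliated markers to 10.1 to 13.2 CPM and 4.57 to 5.49 CPM. The part of these genes in the footprint results was not tested.

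KRT14 was at 349, 348 and 361 CPM in WT and at 22.6, 21.0 and 21.0 CPM in 3p loss. The groups lay far apart with little spread, and KRT14 fell by 4.16 ± 0.10 on the log2 scale (SE; edgeR, adjusted p = 3.98e-11). KRT6A was at 2321, 2265 and 2234 CPM in WT and at 578, 563 and 569 CPM in 3p loss. It fell by 2.14 ± 0.07 (edgeR, adjusted p = 4.72e-10), where its mRNA had risen. KRT6B was at 9.95, 10.2 and 9.78 CPM in WT and at 1.31, 2.75 and 1.99 CPM in 3p loss, from counts of 6, 15 and 27. It fell by 2.29 ± 0.25 (edgeR, adjusted p = 4.99e-06), a change close in size to that of its mRNA. KRT5 was at 7157, 7141 and 6802 CPM in WT and at 5993, 5971 and 5412 CPM in 3p loss, without overlap, and fell by 0.42 ± 0.07 (edgeR, adjusted p = 0.00017).

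KRT15 was at 4.16, 3.92 and 5.54 CPM in WT and at 23.5, 20.1 and 23.0 CPM in 3p loss. It rose by 2.07 ± 0.19 (edgeR, adjusted p = 1.01e-06), and its groups did not overlap. KRT16 was at 8.94, 9.10 and 12.4 CPM in WT and at 23.7, 24.5 and 30.1 CPM in 3p loss, and rose by 1.21 ± 0.18 (edgeR, adjusted p = 5.44e-05). KRT17 was at 921, 983 and 1061 CPM in WT and at 1636, 1636 and 1551 CPM in 3p loss, and rose by 0.56 ± 0.08 (edgeR, adjusted p = 4.31e-05). KRT6C had counts of 8, 8 and 10 in WT and 12, 3 and 3 in 3p loss, too few to be tested, and its groups overlapped. With RPF replicates 1 and 2 summed, the same 7 members passed, at -4.19 for KRT14, -2.14 for KRT6A, -2.33 for KRT6B, -0.44 for KRT5, 2.06 for KRT15, 1.20 for KRT16 and 0.52 for KRT17.

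**Figure D3:**
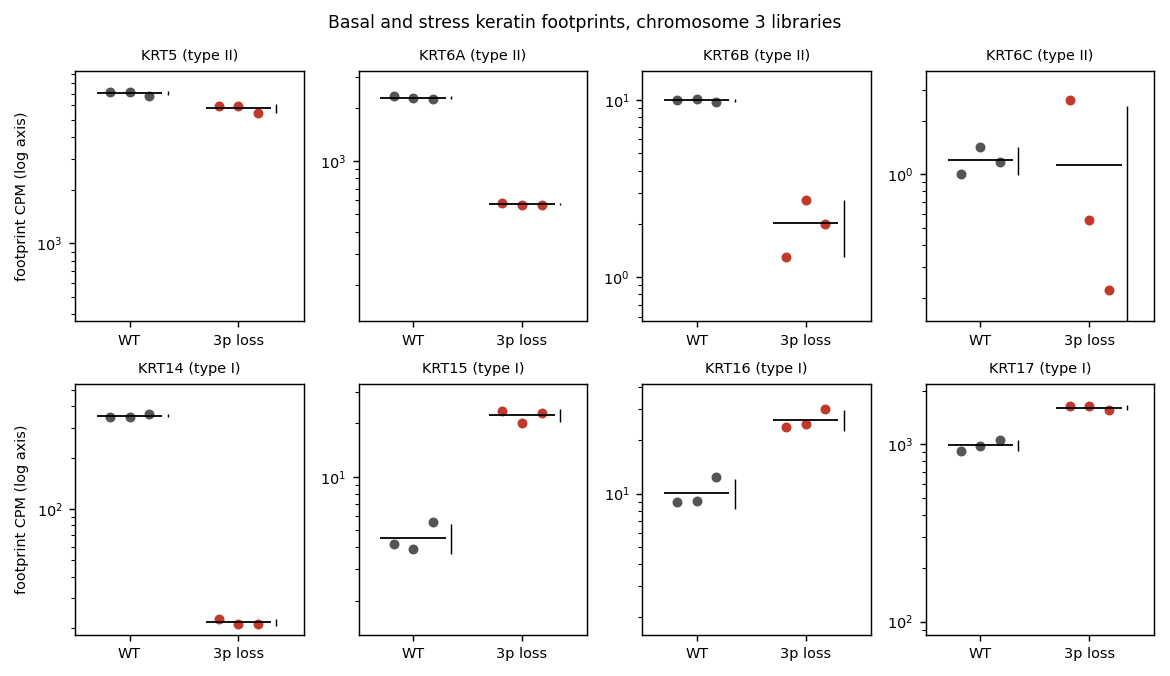
Footprint level of each keratin gene in CPM (log axis) in the 6 RPF libraries, with points for libraries, lines for group means and bars for SD (n = 3). The SD of KRT6C in 3p loss reaches below 0 and runs off the axis. KRT14, KRT6A, KRT6B and KRT5 are lower in every 3p loss library, KRT15, KRT16 and KRT17 are higher, and KRT6C overlaps.

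Footprints relative to mRNA, the translational efficiency, were lower in 3p loss for 3 type II keratins, of which KRT5 did not pass with RPF replicates 1 and 2 summed. The limma interaction of assay and genotype called KRT6A (-2.70 ± 0.24, adjusted p = 2.43e-05), KRT5 (-1.22 ± 0.35, adjusted p = 0.0151) and KRT6C (-1.36 ± 0.48, adjusted p = 0.0390). Of 10224 genes tested, 22.9% were called higher and 13.3% lower. The median log2 change of all genes was 0.13, and -0.06 after median centring, which turned 2338 higher and 1359 lower calls into 1669 and 2061. KRT6A then stood at -2.89 (adjusted p = 5.65e-05), KRT5 at -1.42 (0.0123) and KRT6C at -1.56 (0.0258). The KRT6C call rests on 3 to 12 footprints a library and was lost in 9 of 11 fits that left out a library, with adjusted p of 0.0326 to 0.0935. With RPF replicates 1 and 2 summed, an alternative chosen after seeing the data, KRT6A stood at -2.69 (limma, adjusted p = 0.00117) and KRT6C at -1.47 (0.0397), while KRT5 stood at -1.23 and no longer passed (0.0632), and 2225 genes of all were called in place of 3697.

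The type I keratins and KRT6B did not pass. The differences were -1.11 ± 0.71 for KRT14 (limma, adjusted p = 0.239), -1.13 ± 0.53 for KRT16 (0.111), -0.68 ± 0.77 for KRT15 (0.515), 0.31 ± 0.31 for KRT17 (0.461) and 0.44 ± 0.42 for KRT6B (0.430). KRT14 (-1.84, adjusted p = 0.00922) and KRT16 (-1.63, adjusted p = 0.00722) passed without mRNA replicate 2 of 3p loss, and KRT15 (-1.53, adjusted p = 0.0171) passed without mRNA replicate 3 of WT.

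The KRT6 genes are near-identical in their coding sequence, and KRT14, KRT16 and KRT17 are close relatives too, so that short reads can match more than 1 of them. How the authors counted such reads is not given in the sources used here. Ratios in mRNA are of TPM and ratios in footprints are of counts, so they are compared between groups and not between assays. In mRNA, KRT6B was 1.98 to 3.16% of KRT6A in WT, 0.154 to 0.364% in 3p loss and 0.316 to 0.765% in 3q gain. In footprints it was 0.429 to 0.449% of KRT6A counts in WT and 0.226 to 0.488% in 3p loss, where the groups overlapped. The 95% exact binomial interval of the lowest of these, 0.226% from 6 counts, ran from 0.0828 to 0.492%, for counting error only. KRT75, a hair follicle type II keratin that is also a close relative of KRT6A, was at most 0.342 TPM in chromosome 3 mRNA, and its footprint counts were 0.559 to 0.630% of those of KRT6A in WT and 0.727 to 0.979% in 3p loss. KRT6C in mRNA was 0.429 to 0.522% of KRT6A in WT, 0.568 to 0.771% in 3p loss and 0.604 to 0.755% in 3q gain. The part of shared reads in the results for KRT6B, KRT6C and KRT16 was not tested.

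Relatives were also added up and tested as a single gene. With KRT6A, KRT6B and KRT6C summed, the log2 fold change in 3p loss was 0.67 in mRNA (limma, adjusted p = 0.0505) and the translational efficiency difference was -2.67 (adjusted p = 2.4e-05). With KRT14, KRT16 and KRT17 summed, 3p loss was at 0.11 in mRNA (adjusted p = 0.890) and 0.15 in footprints (edgeR, adjusted p = 0.0902). KRT17 held most of that sum in every group.

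**Figure D4:**
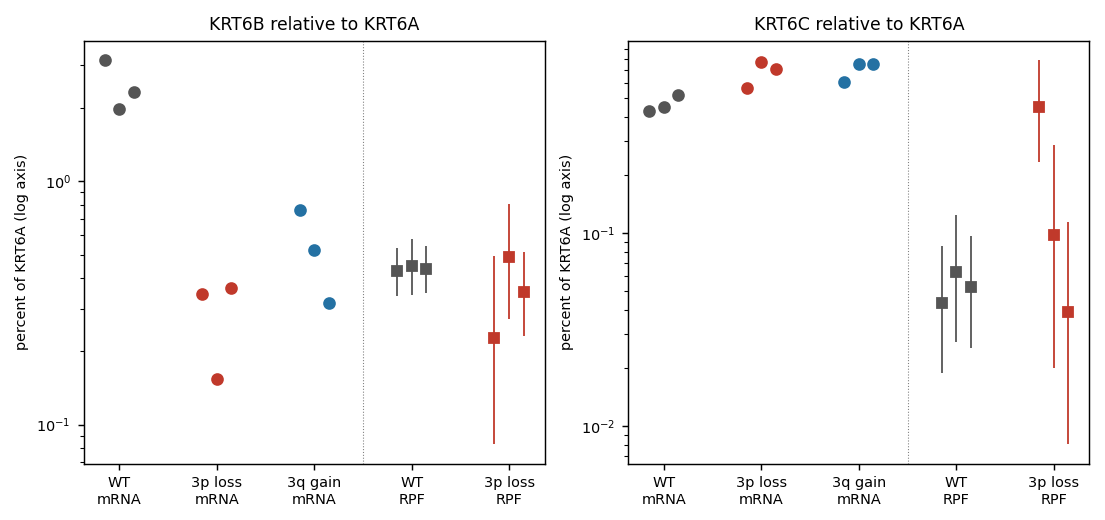
KRT6B and KRT6C as a percent of KRT6A (log axes) in chromosome 3 mRNA (TPM, circles) and in RPF counts (squares, with 95% exact binomial intervals), 1 point for each library. KRT6B falls from 1.98 to 3.16% in WT mRNA to 0.154 to 0.364% in 3p loss mRNA, while its RPF ratios overlap.

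In the chromosome 8 set, all 8 keratins were lower in 8p loss than in 8p WT. Libraries of a group lay close together here. The SD of log2 levels in 8p WT ran from 0.0045 for KRT17 to 0.26 for KRT6C. In Chr3 WT it ran from 0.088 for KRT6B to 1.59 for KRT15. The p-values measure the spread between these libraries only, and the labels do not say how separate their cultures were. They made up 1.45 to 1.51% of TPM in 8p WT and 0.537 to 0.541% in 8p loss. Of 12302 genes tested there, 33.1% were called higher and 36% lower. The median log2 fold change was -1.15 over the 8 members and -0.01 over all genes. Epithelial markers, a list that includes the keratins KRT8, KRT18 and KRT19, moved the same way, with 9 of 10 called lower (median -1.44). Their summed level was 2221 to 2291 TPM in 8p WT and 984 to 1088 TPM in 8p loss. Alveolar markers summed to 157 to 167 TPM in 8p WT and 71.7 to 74.6 TPM in 8p loss, nearly all of it LAMP3. Immune markers summed to 37.4 to 59.6 TPM and 59.7 to 85.4 TPM, mostly CD68, and fibroblast markers to 5.55 to 6.71 TPM and 9.50 to 9.90 TPM. The part of these genes in the keratin result was not tested.

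The basal pair fell unequally. KRT5 was at 6435, 6251 and 6017 TPM in 8p WT and at 1762, 1763 and 1793 TPM in 8p loss, and fell by 1.81 ± 0.03 on the log2 scale (limma, adjusted p = 1.51e-07). KRT14 was at 255, 249.6 and 246 TPM in 8p WT and at 159, 156 and 157 TPM in 8p loss, and fell by 0.67 ± 0.03 (limma, adjusted p = 1.79e-06). KRT5 per KRT14 thus ran from 24.4 to 25.2 in 8p WT and from 11.1 to 11.5 in 8p loss, lower with the arm lost, where it was higher in 3p loss. KRT15 was at 13.6, 15.5 and 13.1 TPM in 8p WT and at 3.84, 3.96 and 3.53 TPM in 8p loss, and fell by 1.66 ± 0.08 (limma, adjusted p = 3.52e-06).

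Among the stress keratins, KRT17 fell from 4100 ± 12.7 TPM to 1562 ± 62.0 TPM (SD, n = 3; -1.39 ± 0.04, limma, adjusted p = 3.63e-07). KRT6A fell from 2346 ± 27.3 TPM to 1104 ± 21.3 TPM (-1.09 ± 0.03, limma, adjusted p = 3.57e-07). The other KRT6 genes fell by 0.90 ± 0.08 for KRT6B, from 62.5 ± 6.50 TPM to 33.0 ± 1.61 TPM (limma, adjusted p = 6.01e-05), and by 1.22 ± 0.21 for KRT6C, from 19.0 ± 3.48 TPM to 7.69 ± 2.45 TPM (0.00175). KRT6B per KRT6A stayed between 2.40 and 3.15% in all 6 libraries. KRT16 was at 25.2, 23.7 and 25.1 TPM in 8p WT and at 19.5, 21.5 and 13.5 TPM in 8p loss, and fell by 0.45 ± 0.15 (limma, adjusted p = 0.0352). That call was lost without 8p loss replicate 1 (0.0513) and without any 1 of the WT libraries (0.0691 to 0.0857).

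**Figure D5:**
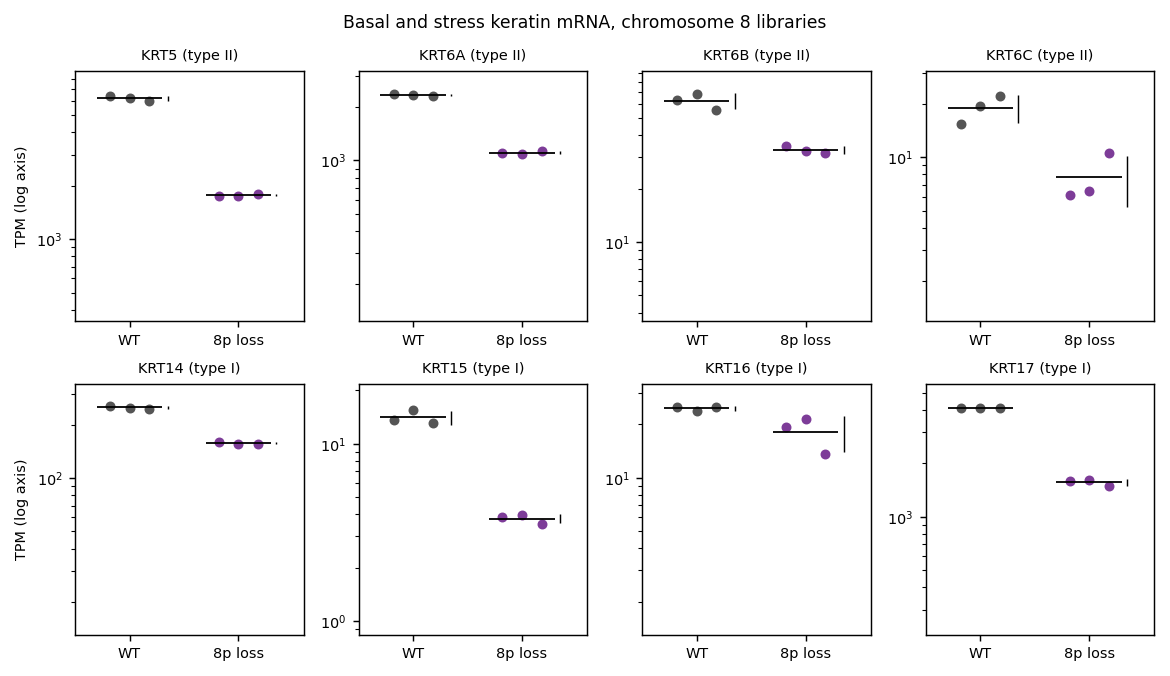
Level of each keratin gene in TPM (log axis) in the 6 chromosome 8 mRNA libraries, with points for libraries, lines for group means and bars for SD (n = 3). Every 8p loss library lies below every 8p WT library for all 8 genes, with the smallest distance for KRT16.

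Other keratins, outside the basal and stress set, included the suprabasal pairs of internal and skin epithelia. In 3p loss mRNA 5 of 10 tested other keratins rose and 1 fell, beside 6.17% and 8.8% of all genes. KRT13, the type I keratin of suprabasal mucosal epithelium, was at 1.47, 0.182 and 16.0 TPM in WT and at 990.5, 136 and 230.4 TPM in 3p loss (6.43 ± 1.08, limma, adjusted p = 0.00462). KRT19, a keratin of simple and basal airway epithelium, rose from 489 ± 208 TPM to 3515 ± 1451 TPM (2.86 ± 0.45, limma, adjusted p = 0.00356). KRT10, the suprabasal keratin of skin, rose from 32.1 ± 8.17 TPM to 131 ± 34.0 TPM (1.99 ± 0.27, limma, adjusted p = 0.00185), and KRT7, a simple epithelial keratin, fell by 0.65 ± 0.16 (0.0247). In footprints KRT13 had 3, 3 and 4 counts in WT and 439, 548 and 1423 in 3p loss. In 8p loss 2 of 9 other keratins rose and 5 fell, beside 33.1% and 36% of all genes. KRT19 stood there at -1.89 ± 0.08 (limma, adjusted p = 2.31e-06).

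Counts of the gene lists described next are read against the shares of all genes called in the same comparison, given above, and a count near them is not a result about the list. Of 31 tested transcription factors and receptors known to act on the keratin genes, 2 rose and 3 fell in 3p loss mRNA (median -0.22), beside 6.17% and 8.8% of all genes. Among them were the AP-1 member FOSL1 (-1.83 ± 0.31, limma, adjusted p = 0.00456), CEBPB (-1.19 ± 0.22, 0.00755) and JUN (-0.83 ± 0.23, 0.0380), which fell, and CEBPA, which rose (1.25 ± 0.34, 0.0371). In 3q gain 2 rose and 3 fell, beside 2.6% and 2.67% of all genes, with FOSL1 at -1.71 ± 0.31 (limma, adjusted p = 0.0168). In 8p loss 7 rose and 17 fell, beside 33.1% and 36% of all genes, and there FOSL1 rose by 0.99 ± 0.05 (limma, adjusted p = 4.44e-06). In 3p loss footprints 16 rose and 9 fell, beside 35.1% and 34.2% of all genes. MYC was among those that fell (-1.38 ± 0.09, edgeR, adjusted p = 4.43e-08). CEBPB, lower in mRNA, was among those that rose (0.86 ± 0.09, edgeR, adjusted p = 2.22e-06).

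Of 25 partners of keratin filaments, 3 rose and 2 fell in 3p loss mRNA (median -0.00065), beside 6.17% and 8.8% of all genes. The desmosomal plaque genes PKP1 (1.12 ± 0.27, limma, adjusted p = 0.0214) and JUP (0.61 ± 0.13, 0.0117) and the basal cell gene TRIM29 (1.21 ± 0.28, 0.0184) rose, and FLNA, an actin cross-linker, fell by 0.57 ± 0.10 (0.00513). In 3q gain the cytolinker PLEC was the 1 partner called (-0.59 ± 0.14, limma, adjusted p = 0.0478), beside 2.67% of all genes called lower. In 3p loss footprints 7 of 24 partners rose and 12 fell (median -0.34), beside 35.1% and 34.2% of all genes. PLEC stood there at -2.21 ± 0.11 (edgeR, adjusted p = 8.22e-09). In 8p loss 5 of 25 partners rose and 14 fell (median -0.42), beside 33.1% and 36% of all genes. The small heat shock protein gene HSPB1 stood there at -1.49 ± 0.18 (limma, adjusted p = 0.000349).

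The basal cell and stress gene lists, both without the keratins, gave other counts. In 3p loss mRNA 2 of 25 basal cell genes rose and 6 fell (median -0.04), beside 6.17% and 8.8% of all genes. LAMA3, a basement membrane gene, was at -1.35 ± 0.30 (limma, adjusted p = 0.0172). Of 24 stress genes, 1 rose and 11 fell (median -1.31), with the EGFR ligand AREG at -3.12 ± 0.27 (limma, adjusted p = 0.000435), the alarmin S100A9 at -3.69 ± 0.55 (0.00267) and the cytokines IL1A (-3.66 ± 0.56, 0.00308) and IL1B (-3.05 ± 0.36, 0.000991). In 3q gain 9 of 24 stress genes passed, all lower (median -1.57), beside 2.67% of all genes called lower. In 3p loss footprints 3 of 15 stress genes rose and 7 fell, beside 35.1% and 34.2% of all genes. The translational efficiency of stress genes was called higher for 10 of 16 (median 1.33), beside 22.9% of all genes. In 8p loss 8 of 24 basal cell genes rose and 15 fell (median -0.70), beside 33.1% and 36% of all genes. Of the stress genes there, 8 of 25 rose and 14 fell (median -0.71), with AREG (0.63 ± 0.06, limma, adjusted p = 7.1e-05) among those that rose.

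The genes most like 7 of the keratins over the 9 chromosome 3 mRNA libraries were found by Pearson's r of log2(TPM + 1), as a description of libraries that share their group differences. KRT5 was nearest to PKP1 (r = 0.96), KRT14 to PIGO (0.96), KRT15 to CERS6 (0.97) and KRT17 to DDHD1 (0.91). KRT6A and KRT16 were both nearest to NID1 (0.94 and 0.97), and KRT6B was nearest to DESI1 (0.97).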

How the data were processed

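The RPF table held footprint counts per gene, whole numbers as deposited, with no normalization by the authors. The mRNA tables as deposited held values scaled by the authors for gene length and library size, which name no unit and are read here as TPM from their column sums (FPKM, a similar scale, could not be told apart). Per the submitters' processing notes, the build was GRCh38. Aligner, counter and annotation are not given in the sources used here. Of 20915 RPF names, 1061 named by transcript (0.432 to 0.568% of counts) were left out. In the chromosome 8 table, 20066 entries became 20036 after values of a shared name were summed. The 9 chromosome 3 and the 6 chromosome 8 mRNA libraries were fitted apart, so levels are compared within a table only. The depth behind TPM is unknown.

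For mRNA, limma 3.58.1 in R 4.3.3 was fitted to log2(TPM + 1) with a trend, for genes of mean at least 1. RPF counts were tested in edgeR 4.0.16 by the quasi-likelihood F test with TMM factors and filterByExpr, with a prior count of 2 for fold changes. For translational efficiency, limma tested whether the genotype effect differed between log2(CPM + 1) of footprints and log2(TPM + 1) of mRNA. All p-values were adjusted by Benjamini-Hochberg over all genes tested, at 0.05. The tests were tried on simulated data. Replicates are labelled biological, and p-values measure the spread between these libraries only. Same-numbered 3p loss and 3q gain libraries deviated together weakly (correlations of 0.12, 0.16 and 0.14). For the 3p loss and 3p WT RPF libraries the correlations were 0.11, 0.036 and 0.12. Every other pair of groups had a negative value in at least 1 number. Libraries of unlike number were not compared, so a pairing was not shown. Alternatives were DESeq2 1.42.0, other filters and pseudocounts, centring, no trend, a replicate block, summed paralogs or replicates, and each library left out.

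All 8 members are named, with up to 4 called genes of highest level from each list described and the 3 nearest genes by correlation, of which the text gives the nearest. Some results under this rule are not reported here. KRT75, TUBB and the single marker genes were named after their values were seen. Members and lists were chosen with earlier results of these data known.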

Additional observations from a re-analysis of the deposited data

Results flagged for a closer look

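The change in 3p loss against WT differed between footprints and mRNA for 3 keratin genes, by the limma interaction of assay and genotype. The footprint change minus the mRNA change was -2.70 on the log2 scale for KRT6A (adjusted p = 2.43e-05), -1.22 for KRT5 (adjusted p = 0.0151) and -1.36 for KRT6C (adjusted p = 0.0390). KRT6A remained called in each of 18 alternatives, and KRT5 in 17 of 18. KRT5 was no longer called with RPF replicates 1 and 2 summed (-1.23, limma, adjusted p = 0.0632). That alternative was chosen after seeing the data. KRT6C, with 3 to 12 footprints a library, remained called in 5 of 16. These 5 include RPF replicates 1 and 2 summed. They also include the sum of KRT6A, KRT6B and KRT6C (-2.67, limma, adjusted p = 2.4e-05). KRT6A held most of that sum, so its call is not a test of KRT6C itself. The labels do not say whether the mRNA and footprint cultures were the same, so culture and assay cannot be told apart.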

How the results depend on the processing

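Counts of calls moved most in the chromosome 3 mRNA set. Members called in 3p loss fell from 5 to 3 with no filter, in limma without trend and with the replicate block, and ran from 3 to 4 with a library left out. Genes called there ran from 990 to 1458 with a library left out (1681 with all), at 990 when 3p loss replicate 1 was left out and 1062 when WT replicate 3 was. In 3q gain they ran from 110 to 634 (592 with all), with 149 and 110 without 3q gain replicates 2 and 3, and 273 and 294 without WT replicates 2 and 3. In 3p loss against 3q gain they ran from 187 to 462 (441 with all), with 191 without 3p loss replicate 1 and 226, 187 and 235 without 3q gain replicates 1, 2 and 3. With RPF replicates 1 and 2 summed, chosen after seeing the data, translational efficiency calls fell from 3697 to 2225. The causes were not tested.

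Signs turned where the summed relatives replaced a gene, by construction of that sum. KRT14 became 0.11 in 3p loss mRNA, 0.15 in footprints and 0.19 in translational efficiency, KRT16 became 0.19 in translational efficiency, KRT6B became 0.67 in 3p loss mRNA and -2.67 in translational efficiency, and KRT6C became -0.59 in 3q gain. Uncalled values also turned with a library left out. In 3q gain KRT5 ran from -0.090 to 0.49, KRT17 from -0.63 to 0.20 and KRT6C from -0.18 to 0.16. KRT6B in 3p loss against 3q gain ran from -0.057 to 0.73, and KRT15 in translational efficiency from -1.53 to 0.041.

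With the replicate block, 1509 genes were called in 3p loss, 451 in 3q gain, 351 in 3p loss against 3q gain, 8456 in 8p loss, 7980 in footprints and 3656 in translational efficiency. The block ended the calls of KRT14 and KRT6A in 3p loss mRNA (adjusted p = 0.0622 and 0.0615) and of KRT6C in translational efficiency (0.0515), and changed no other call of a member. In 3p loss against 3q gain, 3 members were called with and without it.

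Precision in footprints was limited by counts for KRT6C and KRT6B. In chromosome 3 mRNA the SD of log2 levels in WT was 0.88 for KRT14 and 1.59 for KRT15, against 0.026 and 0.12 in 8p WT.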
